A study of Rattus norvegicus with 6 samples.

Results

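Natural killer (NK) cells of the rat pancreas in which neither Klrh1 nor Klri2 was detected are described here, 8244 of the 75981 barcodes kept from 6 single-cell libraries. A barcode was kept with at least 200 genes and a mitochondrial share of at most 25%. It was gated as an NK cell when at least 3 of the 6 genes Ncr1, Klrd1, Nkg7, Prf1, Gzma and Klrb1a were detected, Cd3e, Cd3d and Cd3g had 0 unique molecular identifiers (UMIs) and C1qa, C1qb and C1qc together had at most 1. A further 4001 gated cells held a UMI of Klrh1 or Klri2, and these were the cells compared within each rat. These 14 genes chose the cells, so their values are description and carry no test.

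NK cells are innate lymphocytes that kill target cells by releasing granules with perforin, which opens the target's membrane, and granzymes, the serine proteases that then enter it. Whether they release them depends on a balance of activating and inhibitory receptors, many of which are lectin-like proteins encoded together in the NK gene complex. In rodents these include the Ly49 (Klra) family, the CD94/NKG2 pairs of Klrd1 with a Klrc protein, and in the rat Klrh1 and the Klri receptors that pair with Klre1. NK cells also secrete chemokines such as Ccl3, Ccl4, Ccl5 and Xcl1 and the cytokine interferon-γ.

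The study used male Wistar rats, with 2 rats in each of 3 groups and 1 library per rat. Young rats were taken at baseline at 2 months of age, old rats at 20 months after 18 months on a normal diet, and HFHF-old rats at 20 months after 18 months on a diet high in fat and fructose. Islets were released with collagenase P and enriched on a density gradient, and the origin of the immune cells in the preparations was not tested. Young and old rats differ in age and in time on diet together, which cannot be told apart. HFHF-old and young rats differ in age, time on diet and kind of diet together, which cannot be told apart either. Runs of 6 values follow the groups from young through old to HFHF-old rats, replicate 1 before replicate 2 in each, and p-values measure only the spread between these few rats.

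HFHF-old replicate 2 stood apart from the other libraries before any comparison was made. NK-gated cells were 8053 of its 11738 kept barcodes, and transcripts of islet hormones and digestive enzymes, which NK cells do not make, made up a median 0.00805% of UMIs in its NK cells without Klrh1 and Klri2 against 0.269% to 1.36% in the other 5 libraries. Over all its kept barcodes the median share of these transcripts was 0.00861%, against 0.545% to 13.8% in the other 5 libraries. This library also gave 4860 of the 8244 cells, so sums and shares are given by rat. Between 20 and 69 barcodes were shared by any pair of libraries, at most 0.604% of the smaller one, and at most 2 of them were NK cells without Klrh1 and Klri2 in both.

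The cells carried NK markers that the gate had not used. The 18 such markers, among them Gzmk, Gzmb, Gzmm, Klrk1, Tbx21, Tyrobp and Il2rb, had a summed level of 16937 to 25282 CPM (UMIs of a gene scaled to a total of 1000000 per rat and kind of cell). All had at least 1 UMI in each rat, which sums over many cells reach easily, since all 6 fibroblast markers did so too. Tyrobp, the adaptor of several activating receptors, was found in 95.9% to 98.2% of the cells. Txk, a kinase of NK and T cells, was found in 70.6% to 94.9% of the cells, against 1.61% to 7.41% of B cells in the same libraries. Tyrobp was also found in 27.6% to 61.1% of those B cells, which should lack it, so its share carries a background.

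Markers of other cells were also present. Of 9 T cell markers outside the rule, Cd5, Cd8b, Themis, Trat1 and Cd40lg stood at 0 to 3.52 CPM in every rat. The sum of 87.6 to 234 CPM came mostly from Cd6, Cd28 and Icos of the same list, so T cell markers were not absent as a list. Myeloid markers summed to 258 to 767 CPM in 5 rats and 38.0 CPM in HFHF-old replicate 2, and fibroblast markers to 153 to 1365 CPM. Islet hormones summed to 3439, 11264, 38468, 56068, 3145 and 17.1 CPM and digestive enzymes to 2666, 16671, 3220, 7718, 23658 and 751 CPM, so that hormones exceeded the summed NK markers in both old rats and enzymes did in HFHF-old replicate 1. These sums do not describe the typical cell. The median share of hormone and enzyme UMIs per cell was 0.543% and 0.381% in the old rats and 1.36% in HFHF-old replicate 1. In these rats 2 of 364, 39 of 855 and 3 of 234 cells held over 10%. Their part in the levels given below was not tested, except where the text gives values without the cells that held most of them or without the hormone and enzyme genes.

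At the edges of the gate, 545 of the cells held exactly 3 of the 6 NK genes, and 901 cells that passed the other limits held 2 and fell outside. Gzmk, which the gate did not read, stood at 112, 31.2, 20.0, 439, 281 and 324 CPM just inside and at 12.8, 8.58, 9.03, 78.9, 7.43 and 52.2 CPM just outside. Over all the cells without Klrh1 and Klri2 it stood at 1095, 518, 942, 1105, 896 and 1157 CPM, so the cells just inside lay below the whole in every rat. On the side of Klrh1 and Klri2, 466 gated cells held 1 UMI and 3535 held more. Klrc1 stood at 107, 81.2, 152, 114, 96.2 and 108 CPM with 0 UMIs and at 41.6, 26.2, 77.3, 50.9, 44.1 and 91.9 CPM with 1. Gzmb stood at 293, 171, 173, 272, 143 and 169 CPM with 0 and at 167, 131, 464, 430, 191 and 192 CPM with 1. Gzmb was thus lower with 1 UMI in both young rats, which had 18 and 22 such cells, and higher in the old and HFHF-old rats. Gzmk was also lower with 1 UMI in young replicate 2, at 432 against 518 CPM.

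NK cells without Klrh1 and Klri2 were 8.48%, 4.32%, 4.87%, 5.21%, 1.87% and 41.4% of the kept barcodes. Young rats averaged 6.40% ± 2.95 (SD, n = 2), old rats 5.04% ± 0.240 and HFHF-old rats 21.6% ± 28.0, so the HFHF-old mean rested on replicate 2 and replicate 1 lay below every other rat. Among NK-gated cells alone they were 97.7%, 78.0%, 59.9%, 72.8%, 73.8% and 60.4%. Both young rats lay above the 4 older ones, and old and HFHF-old rats overlapped. With 2 rats against 2 an exact permutation test cannot give a p below 0.333, and no test of these shares was made because the cells were chosen by them.

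How often Klrh1 and Klri2 were seen depends on depth, which differed between rats. Median UMIs in cells without them were 5509, 6707, 8577, 3530, 7048 and 8536. When each gated cell with at least 1000 UMIs was thinned to 1000, the share without either gene became 99.0%, 90.4%, 76.7%, 84.4%, 86.3% and 77.9% of these cells, and the young rats again lay highest. Klri2 was seen in 1.84%, 22.0%, 35.0%, 25.8%, 21.8% and 33.9% of gated cells. In B cells of the same libraries the Klri2 share was 1.85% to 4.03%, at median depths of 6470 to 13131 UMIs, so in young replicate 1 the share was no higher than in B cells. In that rat 17 gated cells held 2 or more UMIs of the 2 genes. Of these 76.5% had Ly49s6 and 17.6% had Klrc1, against 15.8% and 36.8% of its cells with 0 UMIs. Whether they are a separate set was not tested. Klrh1 was seen in 0.461% of gated cells in young replicate 1, in 7.73% and 3.06% in old and in 5.36% and 12.1% in HFHF-old rats, and in 0 of 572 cells in young replicate 2, which allows a share of cells with a UMI of up to 0.524% and sets no limit on cells that carry the transcript unseen.

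The granule program was present in every rat. Prf1, which encodes perforin, stood at 1526, 873, 832, 1087, 1219 and 925 CPM, and the 3 groups overlapped. Gzmm, a granzyme of NK cells, stood at 1614, 1390, 1123, 2560, 1377 and 1502 CPM. Gzmk stood at 1095, 518, 942, 1105, 896 and 1157 CPM, lowest in young replicate 2 and within a range of 896 to 1157 CPM in the other 5 rats. Nkg7, a granule membrane protein needed for degranulation, was at 1224 to 2072 CPM. Gzmm and Nkg7 were both highest in old replicate 2.

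The share of cells with Gzmk differed between rats and was lowest in young replicate 2. It was detected in 71.8%, 46.2%, 78.3%, 74.6%, 92.7% and 93.6% of them and after thinning these cells in 47.1%, 22.7%, 55.0%, 52.7%, 52.8% and 59.8%, against 1.03% to 8.59% of B cells. Gzmb, the granzyme that activates caspases in the target, stood at 293, 171, 173, 272, 143 and 169 CPM and was seen in 37.9% to 53.7% of the cells against at most 1.25% of B cells. Gzmbl3, a gene related to Gzmb whose reads may be shared with its relatives, stood at 71.0, 22.8, 12.4, 64.6, 13.1 and 11 CPM. Both HFHF-old rats lay below both young rats in Gzmbl3, and the old rats overlapped both. Gzmc and Gzmn had no UMI. Other genes of the granule and exocytosis lists stood at 50 to 79.9 CPM (Ctsc, which activates granzymes), 103 to 166 CPM (Cst7), 402 to 740 CPM (Srgn, the granule proteoglycan), 89.0 to 173 CPM (Lamp1) and 160 to 303 CPM (Serpinb9, an inhibitor of granzyme B).

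Gzma, a tryptase granzyme, differed widely between rats, at 1326, 1010, 105, 649, 239 and 596 CPM. Both young rats lay above the 4 older rats, and old and HFHF-old rats overlapped. Gzma was carried by a minority of cells, 38.0%, 45.7%, 19.8%, 15.9%, 12.8% and 25.2%, and after thinning by 30.6%, 33.6%, 6.52%, 14.3%, 9.87% and 13.9%, against 0% to 4.29% of B cells. The cells with 20 or more Gzma UMIs were 16.2%, 15.2%, 0.824%, 5.85%, 4.70% and 8.46% of the cells and held 81.0%, 73.9%, 35.1%, 67.3%, 68.8% and 89.3% of all Gzma UMIs. Prf1 and Gzmk were spread more evenly, since the top 10% of cells held 29.5% to 42.5% of Prf1 UMIs and 30.9% to 61.0% of Gzmk UMIs but 56.7% to 98.6% of Gzma UMIs. Since Gzma helped to choose the cells, these are descriptions only.

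**Figure D1:**
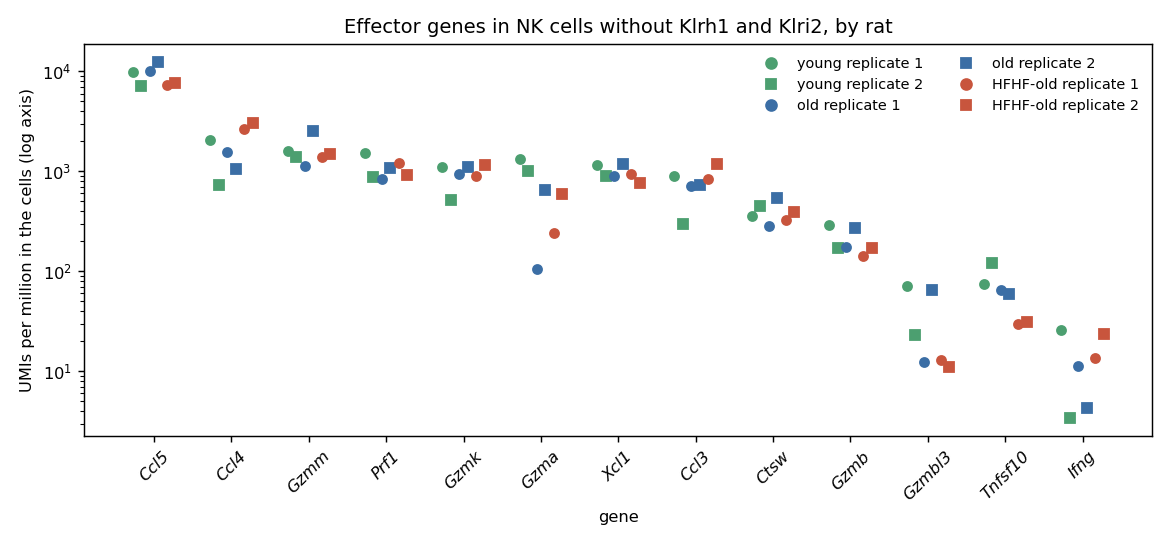
Level of 13 effector genes in NK cells without Klrh1 and Klri2, in CPM on a log axis, 1 point per rat and gene. Gzma spans 105 to 1326 CPM with both young rats on top, while Ccl5 stays between 7207 and 12464 CPM.

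Cells with Gzma also carried other granule genes more often. With each of these cells thinned to 1000 UMIs, Gzmk was detected in 84.6%, 32.7%, 87.0%, 94.9%, 95.7% and 83.5% of cells with Gzma and in 30.6%, 17.6%, 52.7%, 45.7%, 48.1% and 56.0% of cells without. Gzmb was detected in 49.2%, 27.9%, 34.8%, 66.7%, 30.4% and 32.1% of cells with Gzma and in 10.5%, 6.90%, 15.8%, 10.4%, 8.10% and 12.1% of those without. Both orders held in each of the 6 rats, though old replicate 1 and HFHF-old replicate 1 had 23 cells with Gzma each. Prf1 followed the same order in 5 rats, from 68.8% against 54.3% in HFHF-old replicate 2 to 91.3% against 61.4% in HFHF-old replicate 1. In young replicate 2 it was the other way, with Prf1 in 38.1% of 147 cells with Gzma and in 41.7% of 290 cells without. Since 3 of the 6 gate genes were needed, cells without Gzma had to hold other gate genes, Prf1 among them, so shares of Prf1 are partly set by the gate.

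**Figure D2:**
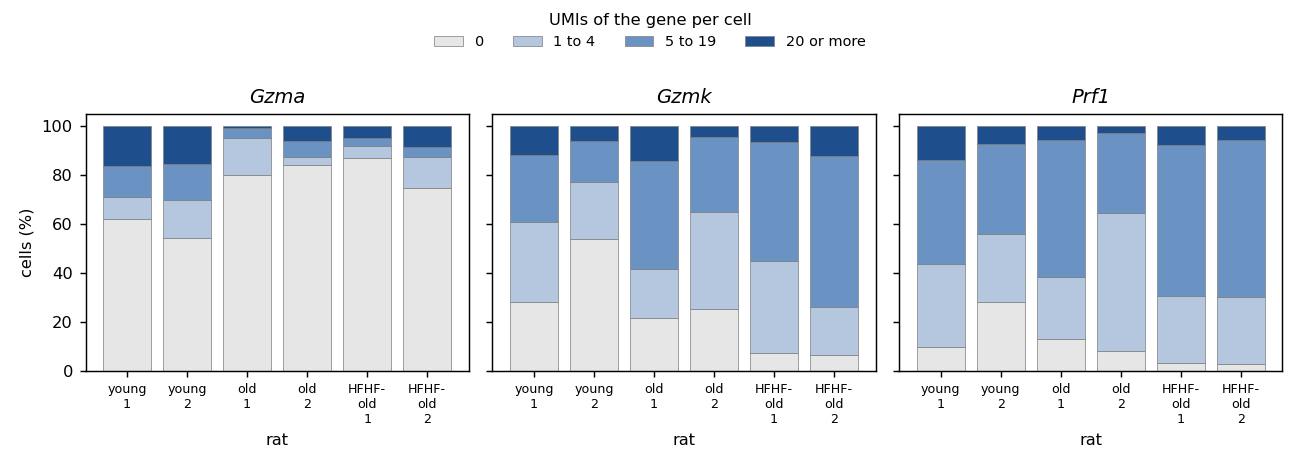
Percentage of NK cells without Klrh1 and Klri2 with 0, 1 to 4, 5 to 19 and 20 or more UMIs of Gzma, Gzmk and Prf1 per rat, at the full depth of each cell. Between 54.3% and 87.2% of the cells have no Gzma UMI, whereas 2.84% to 28.3% have no Prf1 UMI.

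The chemokines and cytokines had their own pattern. Ccl5, a chemokine for T cells and monocytes, stood at 9960, 7207, 9984, 12464, 7387 and 7649 CPM and was detected in 88.6% to 98.7% of the cells. Its share among B cells was 9.68% to 44.2%, so a part of the NK cell share may be background, and this was not tested. Ccl4 stood at 2058, 736, 1556, 1063, 2626 and 3009 CPM, and both HFHF-old rats lay above the other 4. Genes that tissue digestion can induce were, as a sum, also highest in both HFHF-old rats, at 8533 and 6403 CPM against 2678 to 6103 CPM. Their part in the Ccl4 levels was not tested. Ccl3 stood at 891, 296, 721, 724, 831 and 1174 CPM, with overlap. Xcl1, which attracts cross-presenting dendritic cells, was at 765 to 1190 CPM in every rat, and Tnfsf10, the death ligand TRAIL, at 74.9, 120, 65.6, 59.2, 29.6 and 30.8 CPM, lowest in both HFHF-old rats. Ifng was low, at 25.7, 3.39, 11.2, 4.33, 13.7 and 23.7 CPM, and was seen in 1.52% to 11.3% of the cells.

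Of the receptors, Klri1, the inhibitory partner of Klre1, stood at 733, 1033, 943, 1015, 1165 and 1038 CPM. Klre1 was at 102, 399, 439, 507, 343 and 399 CPM and Klrc3 at 176, 451, 507, 411, 503 and 479 CPM, so young replicate 1 was lowest in all 3 genes. Klrk1, which encodes the activating receptor NKG2D, was at 382, 242, 255, 201, 268 and 240 CPM, highest in the same rat. Klrg1, an inhibitory receptor of mature NK cells, ranged from 44.7 to 135 CPM.

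Ly49 genes were on a minority of the cells, and their reads may be split between near-identical family members. At least 1 of Ly49s5, Ly49s6, Ly49i4 and Ly49si1 was detected in 23.9%, 15.0%, 20.3%, 31.9%, 30.8% and 31.3% of the cells, and Klrc1, which encodes the inhibitory receptor NKG2A, in 36.8%, 31.4%, 58.0%, 30.9%, 40.2% and 49.2%. Among cells with Klrc1 the Ly49 share was 16.3%, 13.6%, 16.6%, 26.5%, 25.5% and 31.3%, and among cells without Klrc1 it was 28.4%, 15.7%, 25.5%, 34.3%, 34.3% and 31.4%. The share was lower with Klrc1 in 5 rats and nearly equal in HFHF-old replicate 2. After thinning it ranged from 5.26% to 13.3% with Klrc1 against 9.21% to 22.3% without in 5 rats, lower with Klrc1 in each, but only 20 to 38 thinned cells held Klrc1 in old replicate 1 and HFHF-old replicate 1. In young replicate 2 only 27 did, too few to read.

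The levels were compared between groups in sums of UMIs per rat with edgeR's quasi-likelihood test, and calls needed a p below 0.05 after Benjamini-Hochberg adjustment together with a change of more than 1.5-fold either way. HFHF-old against old rats, the comparison of diet at the same age, gave 0 called genes of 11323 tested, which is 0% of all genes, with 1774 at an unadjusted p under 0.05, and DESeq2 called 195. Without HFHF-old replicate 2 the test called 1 gene and without replicate 1 it called 64, in each case with 1 HFHF-old rat that is assumed to vary like the other groups. Old against young rats, the comparison of age together with time on diet, gave 0 called genes, also 0%, with 502 at an unadjusted p under 0.05 and 38 called by DESeq2. The median log2 fold change of all genes was -0.01 and 0.01 in these comparisons.

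No granule gene was called between groups. For HFHF-old against old rats, 3 of 10 tested genes of the cytotoxic granule list had a log2 fold change above 0, and the median was -0.23. Gzmk differed by -0.14 (SE 0.38), Gzmb by -0.66 (SE 0.35) and Gzmm by -0.53 (SE 0.45), each with an adjusted p of at least 0.381 in edgeR's test. With 1 rat left out Gzmb ranged from -1.05 to -0.19 and Gzmk from -0.38 to 0.083. For old against young rats 6 of 10 were above 0 with a median of 0.13, where Gzmk differed by 0.48 (SE 0.38), from 0.085 to 1.03 with 1 rat left out, and Gzmb by 0.08 (SE 0.35). The sign of the HFHF-old against old value of Gzmk turned without old replicate 2 or without HFHF-old replicate 1. With standard errors of 0.35 to 0.45 for these 3 genes, a change near the fold limit was not detectable here.

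The 7 tested genes of the list of death ligands, cytokines and chemokines had no called member either. Their median was -0.45 for HFHF-old against old and 0.16 for old against young rats. Ccl4 differed by 0.98 (SE 0.46, adjusted p = 0.344 in edgeR's test) and Ccl5 by -0.73 (SE 0.34, adjusted p = 0.341) in HFHF-old against old rats. Tnfsf10 differed by -1.18 (SE 0.30), the smallest adjusted p of the list at 0.296. Its levels were lower in both HFHF-old rats than in every other rat. Between HFHF-old and young rats Tnfsf10 differed by -1.72 (SE 0.30, adjusted p = 0.202 in edgeR's test) and ranged from -2.07 to -1.26 with 1 rat left out. It passed the threshold there with all rats when the low-count filter was left out.

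Among receptors, 0 of 17 tested Klr genes were called in each group comparison. Their median log2 fold change was -0.23 for HFHF-old against old and 0.60 for old against young rats. Klrc1 stood at 152 and 114 CPM in old rats, above 107 and 81.2 CPM in young and 96.2 and 108 CPM in HFHF-old rats, with differences of 0.60 (SE 0.21) for old against young and -0.51 (SE 0.21) for HFHF-old against old. Both missed the threshold, with adjusted p = 0.996 and 0.317. Ly49si1 stood at 50 and 62.6 CPM in young, 63.0 and 174 in old and 149 and 182 in HFHF-old rats, and its difference of 1.53 (SE 0.50) for HFHF-old against young rats had an adjusted p of 0.281.

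HFHF-old against young rats gave 2 called genes of 11323 tested, or 0.0177%, with 1736 at an unadjusted p under 0.05, and DESeq2 called 320. The count was 45 without young replicate 1, 25 without HFHF-old replicate 1, 1 without HFHF-old replicate 2 and 0 without any of the other 3 rats. Nr3c2, the mineralocorticoid receptor, stood at 21.5 and 19.1 CPM in young, 109 and 86.8 in old and 191 and 247 in HFHF-old rats, lowest in young and highest in HFHF-old rats. It was higher in HFHF-old than in young rats by 3.41 on the log2 scale (SE 0.24, adjusted p = 0.0297). NK cells holding Klrh1 or Klri2 had the same order of groups, with Nr3c2 at 38.3, 23.2, 158, 115, 276 and 209 CPM, so it is not particular to the cells without. In B cells of the same libraries Nr3c2 was at 24.9, 6.37, 21.9, 16.0, 28.4 and 17.4 CPM, without that order. The call was lost without HFHF-old replicate 2, at 3.16 (adjusted p = 0.111), and also without young replicate 2 or either old rat, at adjusted p from 0.0722 to 0.118. The cell share with Nr3c2 was 6.94%, 6.28%, 40.9%, 21.6%, 45.3% and 59.2%, against 2.13% to 13.0% of B cells, and after thinning 0.915% to 1.64% in young, 8.67% and 11% in old and 17.6% to 20.4% in HFHF-old rats.

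Mgp, the matrix Gla protein of stromal cells, was the other called gene. It stood at 63.7, 49.1, 34.5, 31.4, 7.97 and 8.47 CPM and was lower in HFHF-old than in young rats, at -2.78 (SE 0.22, adjusted p = 0.0328). Mgp was higher in B cells of every library, at 146, 156, 133, 37.8, 20.8 and 122 CPM, so it is not particular to these NK cells. Where its transcripts came from in either kind of cell was not tested. Without HFHF-old replicate 2 the difference was -2.88 (adjusted p = 0.276), and the call was also lost without young replicate 2 or either old rat, at adjusted p from 0.0722 to 0.118. The difference stayed about as large but missed the p limit under the stricter gate, at -2.73 (adjusted p = 0.228), without cells with other-lineage markers and, with them, HFHF-old replicate 1, at -2.85 (adjusted p = 0.746), and, as a setting chosen after seeing the data, without cells over 10% hormone and enzyme UMIs, at -2.57 (adjusted p = 0.162). The 6 fibroblast markers had a median log2 fold change of -2.32 in the same comparison, and 0 of them were called.

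**Figure D3:**
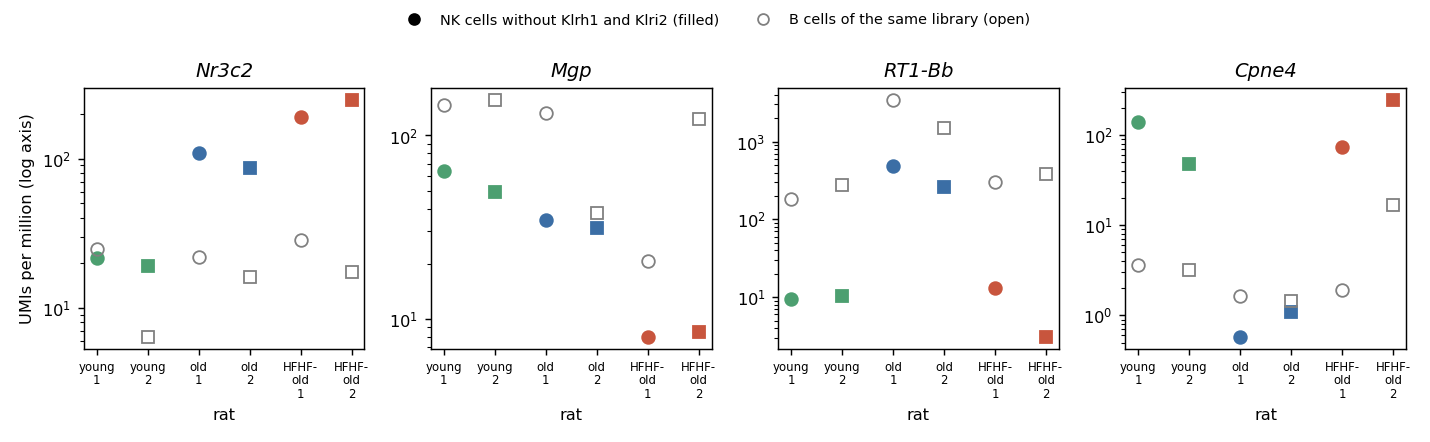
Level of Nr3c2, Mgp, RT1-Bb and Cpne4 in CPM on log axes, 1 position per rat, with filled symbols for NK cells without Klrh1 and Klri2 and open symbols for B cells of the same library. In NK cells Nr3c2 lies lowest in the young and highest in the HFHF-old rats, and Mgp lies below the B cell level in each of the 6 libraries.

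Where no gene was called, the genes with the smallest unadjusted p are given as values. RT1-Bb, a chain of major histocompatibility complex (MHC) class II, stood at 9.51 and 10.5 CPM in young, 479 and 262 in old and 13.1 and 3.07 in HFHF-old rats, and RT1-A1, of class I, at 326 and 208, 1420 and 1040, and 288 and 315 CPM. In both genes the old rats lay above the other 4. B cells had the same order, with RT1-Bb at 182, 279, 3419, 1491, 307 and 381 CPM and RT1-A1 at 231, 243, 781, 604, 218 and 229 CPM. RT1 genes are polymorphic and near-identical, so reads of other alleles or family members may be counted or lost, and their part was not tested. All 5 class II genes tested had log2 fold changes above 0 for old against young and below 0 for HFHF-old against old rats, with medians of 1.44 and -1.89 and none called. RT1-Bb and RT1-A1 passed the threshold in DESeq2 and without the low-count filter when the old rats were set against young or against HFHF-old rats. After thinning they did so for old against young rats at 5.07 and 2.34 (adjusted p = 0.00314 and 0.0446 in edgeR's test), and RT1-A1 did so there without cells with other-lineage markers (adjusted p = 0.0499). For HFHF-old against old rats RT1-Bb passed the threshold after thinning, at -6.33 (adjusted p = 0.000889 in edgeR's test), and with 1 rat left out it ranged from -6.97 to -4.97, past the threshold without HFHF-old replicate 1 (adjusted p = 0.0293), where the spread again comes from the other groups.

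Cpne4, which encodes a calcium-dependent membrane-binding protein, was nearly absent in both old rats. It stood at 138 and 48.1 CPM in young and 72.9 and 245 CPM in HFHF-old rats, while the old rats had 2 and 4 UMIs in all, or 0.575 and 1.08 CPM. NK cells holding Klrh1 or Klri2 had Cpne4 at 157, 57.9, 1.36, 1.34, 50.9 and 260 CPM, likewise nearly absent in both old rats. B cells had 1.45 to 16.8 CPM in every library. S100a4, a calcium-binding protein, was at 464 and 478 CPM in young, 670 and 700 in old and 174 and 190 in HFHF-old rats, and Zfat, a zinc finger gene, at 34.9 and 27.2, 20.1 and 13.8, and 64.9 and 81.9 CPM. In NK cells holding Klrh1 or Klri2, S100a4 was at 616, 258, 90.8, 446, 61.1 and 69.3 CPM and Zfat at 30.6, 14.5, 25.9, 12.8, 69.5 and 73.4 CPM. For HFHF-old against old rats, in cells without Klrh1 and Klri2, S100a4 differed by -2.05 (SE 0.24, adjusted p = 0.210) and Zfat by 2.00 (SE 0.25, adjusted p = 0.261) in edgeR's test. Both passed the threshold in DESeq2 and without the low-count filter, and Zfat also without cells with other-lineage markers, where HFHF-old is 1 rat (adjusted p = 0.0305). With 1 rat left out Zfat ranged from 1.77 to 2.20, and among these fits it passed the threshold without HFHF-old replicate 1 (adjusted p = 0.0479), where the spread comes from the other groups.

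Other gene groups held no called gene in the comparison of HFHF-old with old rats. Of 13 NK transcription factors tested, 12 had a log2 fold change above 0 for HFHF-old against old rats with a median of 0.39, among them Tbx21, the factor of NK effector genes, at 490, 252, 282, 350, 411 and 506 CPM. Of the 11 genes of type 1 innate lymphoid cells and tissue residency, 3 were above 0 with a median of -0.84. Il7r and Cd69, members of that list singled out after their values were seen, differed in direction, Il7r at 23.2, 22.8, 40, 7.03, 7.97 and 3.79 CPM and Cd69 at 479, 294, 481, 359, 1015 and 823 CPM. Cd69 was found in 34.0% to 71.8% of B cells, so it is not a measure of NK cells alone. Proliferation genes had a median of -0.09 for HFHF-old against old rats with 3 of 10 above 0. The median was -0.57 with 2 of 10 above 0 for old against young and -0.59 with 0 of 10 for HFHF-old against young rats. Mki67, a marker of cycling cells, was seen in 12.9%, 16.4%, 7.69%, 2.92%, 7.69% and 7.14% of the cells and in 4.29% to 23.4% of B cells. Interferon response genes, with 4 of 15 above 0 and a median of -0.60, antioxidant genes, with 6 of 18 and a median of -0.27, and glycolysis genes, with 4 of 9 and a median of -0.14, held 0 called genes for HFHF-old against old rats. Genes of the immediate early and dissociation response, which tissue digestion can induce, had a median of 0.90 with 14 of 15 above 0 for old against young rats and none called. The median was 0.74 with 14 of 15 above 0 for HFHF-old against young and 0.19 with 8 of 15 for HFHF-old against old rats, also with none called. Their sum was 4795, 2678, 6103, 4858, 8533 and 6403 CPM, highest in both HFHF-old rats as Cd69 was, and its part in Cd69 was not tested.

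Within each rat, NK cells without Klrh1 and Klri2 were then compared with the NK-gated cells that held either gene, with the rat as a block in edgeR's test. Of 11536 genes tested, 80 were called, or 0.693%, of which 41 were higher (0.355%) and 39 lower (0.338%) in cells without. In all, 1004 genes had an unadjusted p under 0.05, DESeq2 called 101, and the median log2 fold change over all genes was 0.01. Without HFHF-old replicate 2 the test called 28 genes, 23 of them among the 80, and without young replicate 1, whose Klri2 share was no higher than in B cells, it called 41 with 40 among the 80. With cells holding more than 1 UMI of other-lineage markers left out, which left young replicate 1 and HFHF-old replicate 1 with too few cells and out of the fit, 32 genes were called from the other 4 rats. Cells with 0 UMIs can carry the receptors unseen, and thinning to 1000 UMIs, with the cells split anew on the thinned counts, gave 96 called genes of which 35 were shared.

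Gzmk and Gzmb were lower in cells without Klrh1 and Klri2. Gzmk stood at 1095, 518, 942, 1105, 896 and 1157 CPM in cells without and at 1933, 865, 2044, 1585, 1287 and 1546 CPM in cells holding either gene, lower in 6 of 6 rats by -0.66 (SE 0.08, adjusted p = 0.00164). Gzmb stood at 293, 171, 173, 272, 143 and 169 CPM against 410, 322, 522, 411, 185 and 255 CPM, also lower in 6 of 6 rats, by -0.75 (SE 0.13, adjusted p = 0.0206). Of 11 tested granule genes these 2 were called lower, 0 were called higher, 4 had a log2 fold change above 0, and the median was -0.30. Ccl5 was lower in 6 of 6 rats by -0.44 (SE 0.05, adjusted p = 0.00150), short of the fold limit. Without old replicate 1 Gzmk and Gzmb were at -0.57 and -0.58, also short of that limit, and Gzmb missed the p limit without young replicate 2 (adjusted p = 0.0604) or HFHF-old replicate 2 (adjusted p = 0.0794). With cells holding other-lineage markers left out, and with them 2 of the 6 rats, Gzmk was at -0.61 (adjusted p = 0.101).

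Other effector genes did not pass the test. Gzmm differed by -0.08 (SE 0.07) and Gzmbl3 by -1.68 (SE 0.37, adjusted p = 0.0632), the latter lower in 6 of 6 rats. Gzmbl3 ranged from -1.98 to -1.15 with 1 rat left out and passed the threshold in 8 alternatives, among them thinning, at -1.10 (adjusted p = 6.0e-06). Ctsw, a cathepsin of cytotoxic cells, was higher in 6 of 6 rats by 0.49 (SE 0.12, adjusted p = 0.0891). Xcl1 differed by 0.31 (SE 0.07, adjusted p = 0.0801), with 5 of 6 rats higher. Gzma and Prf1, which helped to choose the cells, were lower in 6 of 6 rats, with log2 fold changes of -1.25 and -0.44 given without a test.

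Ly49 genes made up most of the receptors that differed. Of 19 tested Klr genes, 8 were called lower and 1 higher in cells without Klrh1 and Klri2, with a median of -1.55. Ly49s6, of the activating Ly49 type, stood at 119, 13.9, 53.8, 127, 111 and 62.7 CPM against 383, 69.5, 664, 381, 539 and 365 CPM, at -2.33 (SE 0.21, adjusted p = 0.000253). Ly49s5 was at -2.29 (SE 0.24, adjusted p = 0.000760), and Ly49i4, of the inhibitory type, at -2.88 (SE 0.26, adjusted p = 0.000253), each lower in 6 of 6 rats, though in young replicate 2 Ly49i4 had 3 UMIs in cells without and 1 in cells holding either gene, too few to give a direction. Ly49si1 at -1.55, Ly49s4 at -2.45, Klra1 at -2.88 and Klra22 at -2.50 were lower in 4 or 5 of 6 rats. Young replicate 2 had no UMI of Ly49s4, Klra1 or Klra22 in either kind of cell, and the 4 calls were lost without HFHF-old replicate 2, with differences of -1.58, -2.22, -2.93 and -2.27 in the same order (adjusted p from 0.0612 to 0.183). Ly49s4 also missed the p limit without old replicate 1, at -2.26 (adjusted p = 0.0596). Klrg1 was lower in 6 of 6 rats by -0.68 (SE 0.12, adjusted p = 0.0226), a call lost without young replicate 2, old replicate 1 or HFHF-old replicate 2, at -0.64, -0.56 and -0.69. Without cells with other-lineage markers, and with them 2 of the 6 rats, Klrg1 was at -0.59 (adjusted p = 0.0580) and Ly49si1 at -1.28 (adjusted p = 0.145). Several Ly49 and Klra genes are close copies whose reads may be split among them, and the part of this in the differences was not tested.

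Klrc1 went the other way. It stood at 107, 81.2, 152, 114, 96.2 and 108 CPM in cells without and 38.3, 43.4, 65.3, 59.8, 54.3 and 65.8 CPM in cells holding Klrh1 or Klri2, higher in 6 of 6 rats by 0.97 (SE 0.10, adjusted p = 0.000612). Klri1 was at 733, 1033, 943, 1015, 1165 and 1038 CPM against 444, 1024, 504, 787, 707 and 673 CPM, with an adjusted p of 0.0212 but a log2 fold change of 0.58 that fell just short of the fold limit. It passed both limits in 5 alternatives, among them without young replicate 2 and without old replicate 2, at 0.69 and 0.63. Klre1, Klrc3 and Klrk1 differed by -0.10, -0.11 and 0.10 and were not called.

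**Figure D4:**
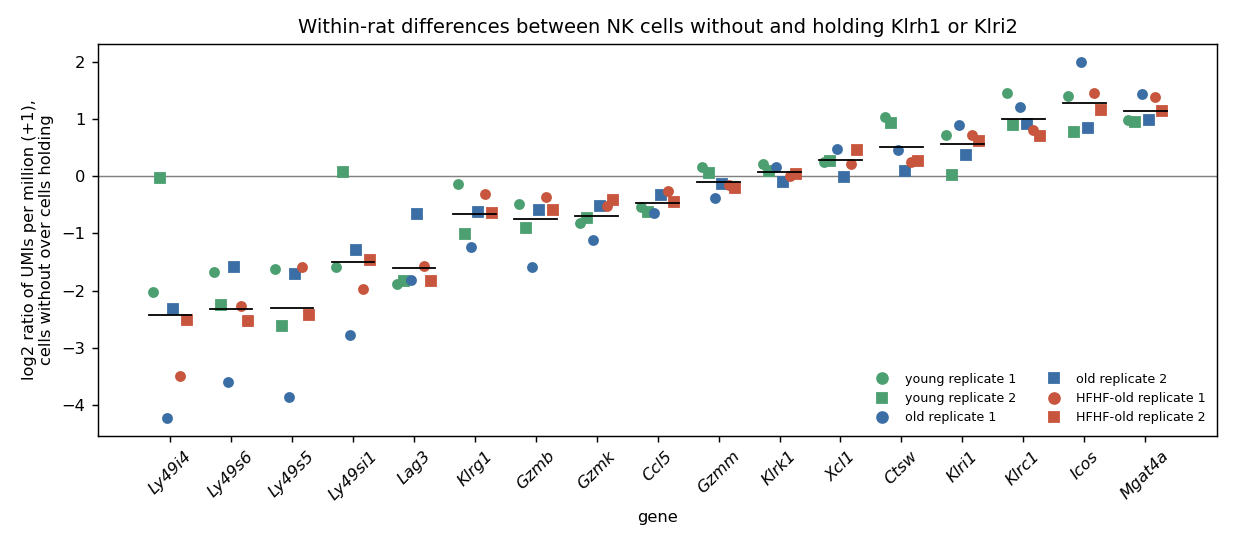
Log2 ratio of the level in NK cells without Klrh1 and Klri2 over that in NK cells holding either gene, 1 point per rat and gene with 1 CPM added, and a bar at the mean of the 6 rats. Ly49s6, Ly49s5, Lag3, Gzmb and Gzmk lie below 0 in all 6 rats and Klrc1, Icos and Mgat4a above 0 in all 6.

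Lag3, Styk1 and Fcgr3a were lower in cells without Klrh1 and Klri2. Lag3, an inhibitory receptor of activated lymphocytes, stood at 32.5, 3.09, 8.34, 10.3, 9.11 and 16.1 CPM against 122, 13.5, 31.8, 16.8, 28.8 and 60.0 CPM, lower in 6 of 6 rats by -1.72 (SE 0.16, adjusted p = 0.000253), and was the 1 called gene of 6 tested inhibitory receptors, whose median was -0.06. Styk1, a kinase-like protein of NK cells, was lower by -2.33 (SE 0.21, adjusted p = 0.000355) in the 5 rats where it was detected. Fcgr3a, the receptor for antibody-coated targets, was the 1 called gene of 20 tested activating receptors and signalling genes, at -1.37 (SE 0.28, adjusted p = 0.0462), and the call was lost without either young or either HFHF-old rat. The lower genes also included Spint1 at -0.60 and Taf4b at -0.80, each lower in 6 of 6 rats, and Spint1 fell short of the fold limit without young replicate 2 or old replicate 1. After thinning Taf4b was at -0.50 (adjusted p = 0.0697), Spint1 at -0.45 (adjusted p = 0.147) and Fcgr3a at -0.81 (adjusted p = 0.378). Without cells with other-lineage markers, and with them 2 of the 6 rats, Spint1 was at -0.48 (adjusted p = 0.128) and Fcgr3a at -0.96 (adjusted p = 0.289).

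Among the genes that were higher in cells without Klrh1 and Klri2, Mgat4a, an enzyme that branches N-glycans, had the smallest adjusted p. It stood at 92.2, 43.5, 64.1, 33.0, 76.9 and 55.8 CPM against 45.9, 22.2, 23.1, 16.1, 28.8 and 24.9 CPM, at 1.22 (SE 0.10, adjusted p = 0.000179). Icos, a costimulatory receptor, was at 82.2, 37.0, 93.8, 58.4, 43.8 and 59.5 CPM against 30.6, 21.2, 22.7, 32.3, 15.3 and 26.1 CPM, at 1.32 (SE 0.15, adjusted p = 0.00139), the 1 called gene of 5 tested T cell markers. Ankrd6 (0.94), Arhgap26 (0.60), Efhd1 (1.18), Mboat1 (0.75) and Emb (0.83) were likewise higher in 6 of 6 rats, of which Arhgap26 fell short of the fold limit without HFHF-old replicate 1 and Mboat1 missed the p limit without HFHF-old replicate 2. The T cell markers summed to 209, 87.6, 200, 151, 234 and 232 CPM in cells without and to 130, 55.0, 107, 122, 188 and 185 CPM in cells holding Klrh1 or Klri2, higher in cells without in 6 of 6 rats, and their part was not tested. When cells with more than 1 UMI of other-lineage markers were left out, and with them 2 of the 6 rats, Icos was at 0.84, Emb at 0.65 and Mboat1 at 0.69 and missed the p limit, and Arhgap26 was at 0.56, short of the fold limit. Icos is itself among the T cell markers, so it is part of their sums and of this filter. Its smaller value there was partly set by the filter and says nothing on its source. After thinning Arhgap26 was at 0.51 (adjusted p = 0.0556) and Mboat1 at 0.67 (adjusted p = 0.105), and under the stricter gate Arhgap26 was at 0.58.

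The lists also gave Cxcr6, a chemokine receptor of resident lymphocytes, at 1.32 (SE 0.27, adjusted p = 0.0462), Tox, a factor in NK cell development, at 0.63 (SE 0.13, adjusted p = 0.0394), and the stress-response factor Atf3 at 0.63 (SE 0.12, adjusted p = 0.0268). They were the 1 called gene of 11 tested for type 1 innate lymphoid cells and residency, of 13 NK transcription factors and of 15 immediate early and dissociation genes. Each was higher in 6 of 6 rats and lost its call in at least 3 of the fits that left out 1 rat. All 3 calls were lost without cells with other-lineage markers, and with them 2 of the 6 rats, where Atf3 was at 0.39, and under the stricter gate (adjusted p = 0.0642, 0.0804 and 0.0608 for Cxcr6, Tox and Atf3). After thinning Cxcr6 and Atf3 missed the p limit at 1.76 and 0.75, and Atf3 fell short of the fold limit without the top 1% of cells by gene number, at 0.56. Atf3 was at 0.47 (adjusted p = 0.236) without cells over 1% other-lineage UMIs, a setting chosen after seeing the data. The genes Rora, Ikzf2 and Il23r, known in innate lymphoid cells and named here after their values were seen, were called higher at 0.85, 1.06 and 2.18 in 6 of 6 rats. Without cells with other-lineage markers, and with them 2 of the 6 rats, Rora was at 0.61 (adjusted p = 0.209) and Ikzf2 at 1.37 (adjusted p = 0.0580), and after thinning Ikzf2 was at 1.02 (adjusted p = 0.173). Without HFHF-old replicate 2 Ikzf2 and Il23r missed the threshold (adjusted p = 0.0942 and 0.103), as did Il23r without old replicate 1 (adjusted p = 0.0851).

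Some called genes are not known as genes of NK cells. S100g was called higher at 4.63, but 1198 of its UMIs in cells without came from young replicate 1 and at most 3 from any other rat. A haemoglobin gene, Hba-a2, was called higher on both of its rows in the files, at 2.49 with 4 of 6 rats higher and at 1.72 with 6 of 6, and without young replicate 1 the first missed the threshold at 1.92 (adjusted p = 0.0691). Summed fibroblast markers stood at 1365, 294, 592, 388, 372 and 153 CPM in cells without and at 2603, 42.4, 285, 119, 616 and 141 CPM in cells holding Klrh1 or Klri2, higher in cells without in 4 of 6 rats. Digestive enzymes had a log2 fold change above 0 for 10 of 10 tested genes (median 0.51), MHC class II genes for 5 of 5 (0.57) and myeloid markers for 7 of 9 (0.19). Endothelial markers had 0 of 4 above 0 (median -0.93), and none of these lists held a called gene. The part of all these markers in the called genes was not tested.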

How the data were processed

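Single-cell RNA sequencing of pancreatic islet preparations from 6 male Wistar rats was analysed, 2 rats in each of 3 groups with 1 library per rat. The authors made 10x Genomics 3' v3.1 libraries and deposited raw UMI counts per gene and barcode from Cell Ranger (5.0.0 in the file headers), mapped to Rnor_6.0 per the submitters' processing notes, with 32883 genes. The deposited counts were used without further normalization by the authors.

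The 78024 deposited barcodes were filtered to 75981. NK-gated cells were split by Klrh1 and Klri2, and the UMIs of each rat were summed per kind of cell, giving 1756366 to 44293955 UMIs in cells without and 261236 to 33472234 in cells holding either gene. Sums were fitted with edgeR 4.0.16 (quasi-likelihood, TMM scaling, filtered on low counts) in R 4.3.3: all 6 rats in 1 fit between groups, with 3 residual degrees of freedom, and the rat as a block within rats, with 5. P-values were adjusted with Benjamini-Hochberg over all genes tested, the standard error is the log2 fold change over the square root of the F statistic, and the 14 genes of the rule were left out of calls. DESeq2 1.42.0, Python 3.11.15, numpy 2.4.6, scipy 1.17.1, pandas 2.3.3 and matplotlib 3.10.9 were used beside it. Simulated counts with known changes were also run through the fits, and the outcome is not reported here.

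B cells, the background for shares of cells with a UMI, were kept barcodes with at least 2 of 7 B cell markers and fewer than 3 NK genes. Thinned shares of cells with a gene use the cells as split at full depth, and thinned fits and shares of the gate split them anew. Rats with fewer than 10 cells of a kind were left out of a fit. No doublet caller was run. The limits on Cd3 and C1q remove some doublets, and alternatives left out cells with UMIs of other lineages or in the top 1% by gene number. Floors (3 counts) cover counting error only.

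Genes were named from the cytotoxic, cytokine and Klr lists, with values for those the results turn on, up to 5 called members of each other list, the 10 called genes with the smallest p in each direction (clone, ribosomal and mitochondrial genes left out) and, where none was called, from the 5 with the smallest p in each direction. Rora, Ikzf2, Il23r, Il7r, Cd69, Tbx21, Mki67, Tyrobp and Txk are outside this rule and were chosen after their values were seen. The cells, lists and alternatives were chosen with earlier results of these data known. Alternatives changed the size factors, filter, tool, gate, depth, cells and rats. Leaving out cells with over 10% hormone and enzyme UMIs or over 1% other-lineage UMIs was added after seeing the data.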

Additional observations from a re-analysis of the deposited data

How the results depend on the processing

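The shares moved with the cells counted. Leaving out cells with more than 1 UMI of other-lineage markers changed the mean shares of kept barcodes. They were 1.41% for young rats, 1.82% for old rats and 10.7% for HFHF-old rats, with 7 of 234 cells left in HFHF-old replicate 1. The stricter gate gave 4.42% in old rats. Thinning dropped barcodes with too few UMIs, so its base was 6993 and 12336 barcodes in old rats against 7479 and 16421 kept. On this smaller base the old mean was 7.15%, against 5.04% of all kept barcodes. The part of the smaller base in this difference was not tested. Of the NK-gated cells that could be thinned, 80.5% in old and 82.1% in HFHF-old rats then held neither gene. Leaving out 1 rat gave 4.32% to 8.48% of kept barcodes in young, 4.87% to 5.21% in old and 1.87% to 41.4% in HFHF-old rats, and 78.0% to 97.7%, 59.9% to 72.8% and 60.4% to 73.8% of NK-gated cells.

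Counts of called genes changed with several settings, and the cause was not tested except that thinning and leaving out cells lower the number of UMIs. Leaving out cells with other-lineage markers also took HFHF-old replicate 1 out of these fits, so HFHF-old is replicate 2 alone there, and a group with 1 rat left is assumed to vary like the others. For HFHF-old against old rats they were 195 with DESeq2, 810 without the low-count filter, 3 after thinning, 46 without cells with other-lineage markers and 0 to 64 with 1 rat left out. For old against young rats they were 38, 238, 5 and 8 in the same order and 0 to 1 with 1 rat left out. For HFHF-old against young rats they were 320, 1091, 8 and 75, with 1 under the stricter gate, 0 to 45 with 1 rat left out and, as alternatives chosen after seeing the data, 1 without cells over 10% hormone and enzyme UMIs and 5 without cells over 1% other-lineage UMIs.

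With the replicate block the comparisons between groups gave 0 calls each, Nr3c2 at 3.39 (adjusted p = 0.0924 in edgeR's test) and Mgp at -2.77 (adjusted p = 0.0999). The labels give a replicate number and no other pairing of rats across groups. The correlations of same-numbered deviations were 0.118, -0.0458 and -0.0146 over 11332 genes. Each compares a single difference between replicates per group, so they cannot settle whether rats of the same number belong together. Within rats, both kinds of cell came from the same library, and without the block on the rat, named no replicate block among the alternatives, 2 genes were called. Within rats the low-count filter left out gave 363 calls, cells with other-lineage markers left out gave 32 from 4 rats, and leaving out 1 rat gave 28 to 81, lowest without HFHF-old replicate 2. With the hormone and enzyme genes left out, 86 genes were called within rats, 2 for HFHF-old against young rats and 0 in the other comparisons of groups. All named genes kept direction and side of the threshold there.

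The alternatives were run on 44 named genes within rats, 12 in the comparison of HFHF-old with old rats, 9 in that of old with young and 4 in that of HFHF-old with young. Of these values 1000 kept direction and side of the threshold, 108 lost a call, 39 gained one and 13 turned in sign, none of which had been called. Without cells with other-lineage markers, Gzmm turned to 0.10 and Ccl3 to 0.17 within rats and Gzmb to -0.14 for old against young rats, and after thinning Klrk1 turned to -0.0086 within rats. With 1 rat left out, Gzmk ranged from -0.38 to 0.083 and Gzmm from -1.09 to 0.31 for HFHF-old against old rats, and Gzmb from -0.39 to 0.47, Gzmm from -0.40 to 1.00, Ccl4 from -0.49 to 0.86 and Ifng from -1.58 to 1.20 for old against young rats.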
